A study of Mus musculus with 14 samples.

Results

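The mitochondrial respiratory chain was followed here through its nuclear genes, in regulatory T cells (Tregs) from spleen, lymph node and melanoma. Genes were taken by name: every Nduf, Uqcr and Atp5 gene, the succinate dehydrogenase genes Sdha to Sdhd, Cyc1, Cycs, and the genes whose names begin with Cox4 to Cox8. This gave 96 of the 22255 genes in the deposited tables, 94 of them protein-coding. Complex I had 36 subunit genes, and 7 further Ndufaf genes encode factors that help to build it. Complex II had 4 genes, complex III with cytochrome c had 10, complex IV had 20 and complex V had 15. Ndufa4 and Ndufa4l2 were placed with complex IV, where the Ndufa4 protein is now known to belong. Atp5s and Atp5sl, and the pseudogenes Uqcrh-ps1 and Atp5l-ps1, were kept apart.

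Tregs are CD4 T cells that hold other immune cells in check and are defined by Foxp3, and their RNA was sequenced in 14 libraries made from low-input total RNA with Smart-Seq2. All cells were positive for a Foxp3-linked yellow fluorescent protein, and the mice were 8 weeks old. The spleen group (4 libraries), the lymph node group (LN, 4) and the wild-type tumor group (WT tumor, 3, replicates 2, 3 and 4) came from strain FoxP3-YFPCre+/+. The knockout tumor group (KO tumor, 3, replicates 1, 2 and 3) came from strain CD36floxed FoxP3-YFPCre+/-, so floxed Cd36 is cut by a Cre that Foxp3 drives. Cd36 encodes a receptor that takes up fatty acids. Both tumor groups came from Yumm1.7, a mouse melanoma line. KO and WT tumor differ in the Cre genotype as well as in Cd36, and the 2 cannot be told apart. KO tumor differs from spleen and LN in tissue, Cd36 and the Cre genotype together, and these cannot be told apart either. The labels do not say that replicates are separate animals, so the p-values measure the spread between these libraries, which may be technical.

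The respiratory chain sits in the inner mitochondrial membrane. Complex I takes electrons from NADH and complex II takes them from succinate, an intermediate of the TCA cycle. Ubiquinone carries them to complex III, cytochrome c carries them on to complex IV, and complex IV passes them to oxygen. Complexes I, III and IV pump protons, and complex V, the ATP synthase, uses the returning protons to make ATP. Most subunits are encoded in the nucleus, and the mitochondrial genome supplies a few core subunits of every complex except II. Tregs are known for relying on oxidative metabolism, and the study asked how Tregs in tumors differ from those in lymphoid organs and what deletion of Cd36 changes.

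The promoters of these genes carried known respiratory gene motifs more often than promoters at large. The window was 250 bases before to 50 bases after the start (RefSeq, GRCm38.p6), and 74 of the 96 genes matched that table by symbol. Both strands were searched for 3 motifs: the core GCATGCGC of the site of NRF1, the factor named for nuclear respiratory genes; the ETS motif CCGGAAG, which GABP (NRF2) binds; and the YY1 motif AAGATGGC. GCATGCGC was in 13 genes (17.6%) against 3.05% of all 27025 promoters. CCGGAAG was in 17 (23.0%) against 9.93%, and AAGATGGC was in 9 (12.2%) against 3.19%. Any of the 3 was in 33 (44.6%) against 14.9%. Of the 9 genes with the YY1 motif 7 were among the 32 complex I subunits with a promoter and 2 among the 13 of complex V. Complex IV had 0 of 14, and the other sets held only 3 to 6 promoters each. A match describes letters only and says nothing of binding.

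The stretches below belong to genes whose levels are described further on, and the capitals mark the motif. For Cycs, Ndufaf1, Sdhb and Cox6a1 they are the 100 bases before the start, for Cox8a 30 bases across it and for Ndufa3 30 bases just after it. Cycs (chr6:50566570-50566669, minus strand) and Sdhb (chr4:140961171-140961270, plus strand) hold the NRF1 core. Ndufaf1 (chr2:119662835-119662934, minus), Cox6a1 (chr5:115348959-115349058, minus) and Cox8a (chr19:7217604-7217633, minus) hold the ETS motif, the last 2 in reverse complement. Ndufa3 (chr7:3617384-3617413, plus) holds the YY1 motif, which lies after the start.
Cycs: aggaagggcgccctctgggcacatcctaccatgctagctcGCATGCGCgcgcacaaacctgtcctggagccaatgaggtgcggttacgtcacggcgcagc
Sdhb: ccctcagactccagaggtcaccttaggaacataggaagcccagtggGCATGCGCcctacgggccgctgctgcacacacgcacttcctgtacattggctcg
Ndufaf1: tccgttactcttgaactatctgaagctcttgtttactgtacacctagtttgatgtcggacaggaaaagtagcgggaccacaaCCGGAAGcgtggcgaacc
Cox6a1: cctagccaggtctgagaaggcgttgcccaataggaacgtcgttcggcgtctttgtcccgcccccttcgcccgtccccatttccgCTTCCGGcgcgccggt
Cox8a: atttccgaaataCTTCCGGctcgggcgtcc
Ndufa3: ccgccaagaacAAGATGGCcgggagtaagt

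Values are FPKM, fragments per kilobase of transcript scaled to the mapped fragments of the library. This unit allows for transcript length, but a comparison of levels between genes stays approximate. The estimated depth was 10.8 to 21.4 M reads per library, and 7469 to 8307 genes per library reached 1 FPKM. Depth was 11.5 to 13.9 M in spleen, 18.4 to 21.4 in LN, 10.8 to 14.4 in WT tumor and 13.6 to 17.2 in KO tumor. All 8 Treg and T cell markers reached 1 FPKM in every library. The 10 macrophage and monocyte markers summed to 271 to 711 FPKM in spleen, 4.04 to 36.1 in LN, 1.18 to 106.5 in WT tumor and 306 to 415 in KO tumor, and Cd68 and Adgre1 were listed at 0 in all WT tumor libraries. The 6 melanoma markers summed to at most 1.84 FPKM, with Mlana, Dct, Tyrp1 and Sox10 listed at 0 throughout. A listed 0 is no limit on expression, since mt-Co2, mt-Atp6 and mt-Atp8, which every cell uses, are also listed at 0 in all 14 libraries. The 4 CD8 T and NK cell markers summed to 6.91 to 60.01 FPKM in spleen, 0.110 to 5.52 in LN, 21.5 to 63.2 in WT tumor and 12.1 to 34.1 in KO tumor. Globin and other erythroid genes ran from 63.3 to 16427 FPKM and differed widely within both tumor groups. Cd36 was listed at 0 in every LN and WT tumor library and in KO tumor 1 and 3, at 1.06 FPKM in KO tumor 2, and at 0, 0.598, 4.47 and 2.17 in spleen 1 to 4. Its deletion therefore cannot be read from these libraries.

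Respiratory chain transcripts were abundant in every library. Of the 96 genes 88 averaged at least 1 FPKM, 71 reached 1 FPKM in all 14 libraries and 47 averaged over 100 FPKM. Together they held 3.80% ± 0.154 (SD, n = 4) of all FPKM in spleen, 4.24% ± 0.196 (n = 4) in LN, 3.78% ± 0.0548 (n = 3) in WT tumor and 3.83% ± 0.194 (n = 3) in KO tumor. Each LN library (4.05 to 4.46%) stood above each of the other 10, whose highest was 3.98%. The LN libraries were also the deepest, at 18.4 M reads or more against at most 17.2. The part of depth in the higher share was not tested. The highest averages over the 14 libraries were those of Cox4i1 (1468 FPKM), a nuclear-encoded regulatory subunit of complex IV, Uqcrh (1429), the hinge subunit of complex III, and Ndufa2 (1117), an accessory subunit of complex I.

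The complexes differed in level far more than the groups did. The median log2(FPKM + 1) over the genes of complex IV (14 genes averaging at least 1 FPKM) was 8.17 ± 0.204 in spleen, 8.66 ± 0.113 in LN, 8.26 ± 0.210 in WT tumor and 8.32 ± 0.269 in KO tumor (means ± SD over libraries). For complex V (15 genes) the 4 group means lay between 7.45 and 7.57, and for complex I (36 genes) between 6.49 and 6.78. Complex III with cytochrome c (10 genes) stood at 6.41 ± 0.249 in spleen, 6.78 ± 0.311 in WT tumor and 6.53 ± 0.314 in KO tumor, and was highest in LN. The 3 measured genes of complex II ran from 2.51 ± 1.01 in WT tumor to 4.54 ± 0.673 in LN, and the 7 complex I assembly genes from 1.48 ± 1.59 in KO tumor to 2.69 ± 0.646 in LN. Within complex I, the 7 core subunits, which carry the electron path, had a median mean level of 81.6 FPKM and the 29 accessory subunits one of 111.5. Short transcripts stood higher: the median level was 269 FPKM in the 29 shortest (361 to 551 bases), 111.5 in the 29 of middle length and 60.3 in the 29 longest (759 to 2675 bases). Core transcripts were longer than accessory ones (median 813 against 572 bases). The part of transcript length, or of its correction in FPKM, in these differences between genes and complexes was not tested.

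**Figure D1:**
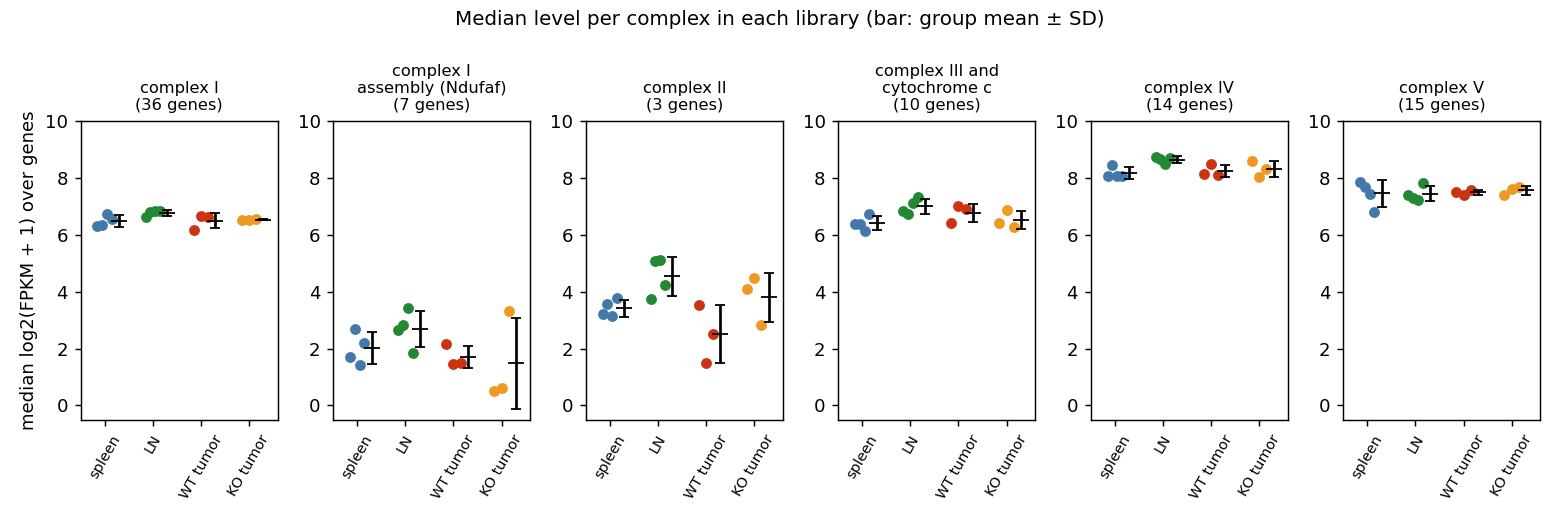
Median log2(FPKM + 1) over the genes of each complex (y axis) in each library, by group (x axis); points are libraries and bars are the group mean ± SD. Complex IV lies highest, between 8.17 and 8.66 on average, while complex II and the complex I assembly genes lie lowest and spread most.

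**Figure D2:**
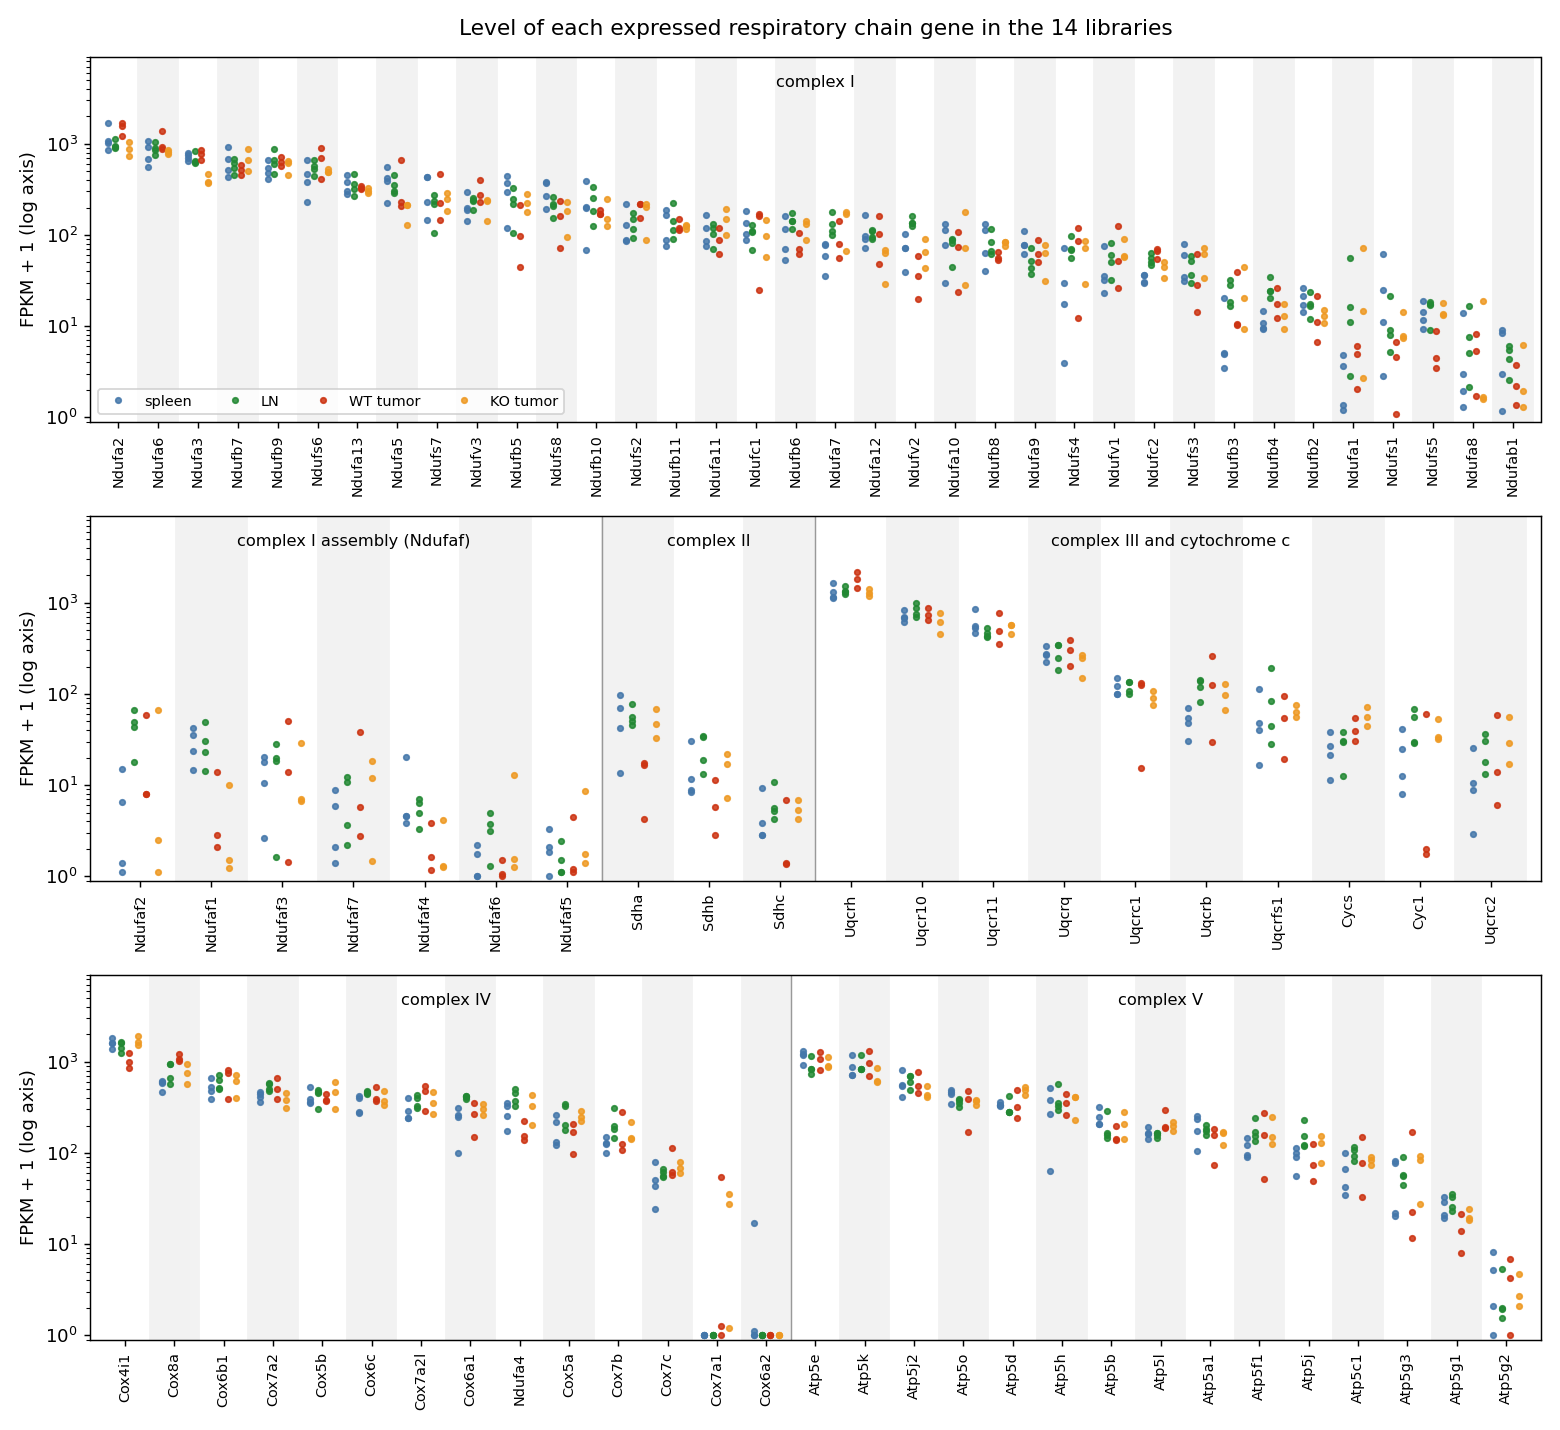
Level of each gene with a mean of at least 1 FPKM, as FPKM + 1 on a log axis, in the 14 libraries; each point is a library and colours are the groups. Libraries of a group lie close together for abundant genes such as Cox4i1 and far apart for genes such as Ndufaf2.

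Which group was highest varied from gene to gene. Group means of log2(FPKM + 1) were ranked for this. Of the 88 genes averaging at least 1 FPKM, 36 had their highest group mean in LN, 19 in spleen, 18 in WT tumor and 15 in KO tumor. The lowest mean was in spleen for 33, in WT tumor for 31, in KO tumor for 14 and in LN for 10. These are counts of means with no test, and the same count was not made over all genes.

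Few of the genes passed the test in any comparison, and no complex had more than 2 called within the same comparison. The test was limma on log2(FPKM + 1) over all genes with at least 3 libraries at 1 FPKM, with Benjamini-Hochberg adjustment over all tested genes and a threshold of 0.05. In WT tumor against spleen 2 of 86 were called (Cox8a higher, Cox4i1 lower) where 1.90% of all tested genes were, and the median log2 difference was -0.02 against -0.07 over all genes. In WT tumor against LN 2 of 86 were called (Ndufv2 and Ndufa4, both lower) where 3.04% of all genes were, with medians of -0.21 and -0.12. KO tumor against spleen gave 2 of 87 (Ndufa3 and Ndufaf1, both lower) beside 2.80%, with medians of 0.13 and 0.02. KO tumor against LN gave the same 2 genes beside 3.42%, with medians of -0.12 and -0.01. These shares are near the background of each comparison. For LN against spleen 0 of 86 were called (0.499% of all genes) and for KO against WT tumor 0 of 83 (0.280%), with 16 and 10 at an unadjusted limma p under 0.05, beside 10.4% and 8.64% of all genes. Comparisons with a group in common share its libraries, so they are not independent of each other.

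**Figure D3:**
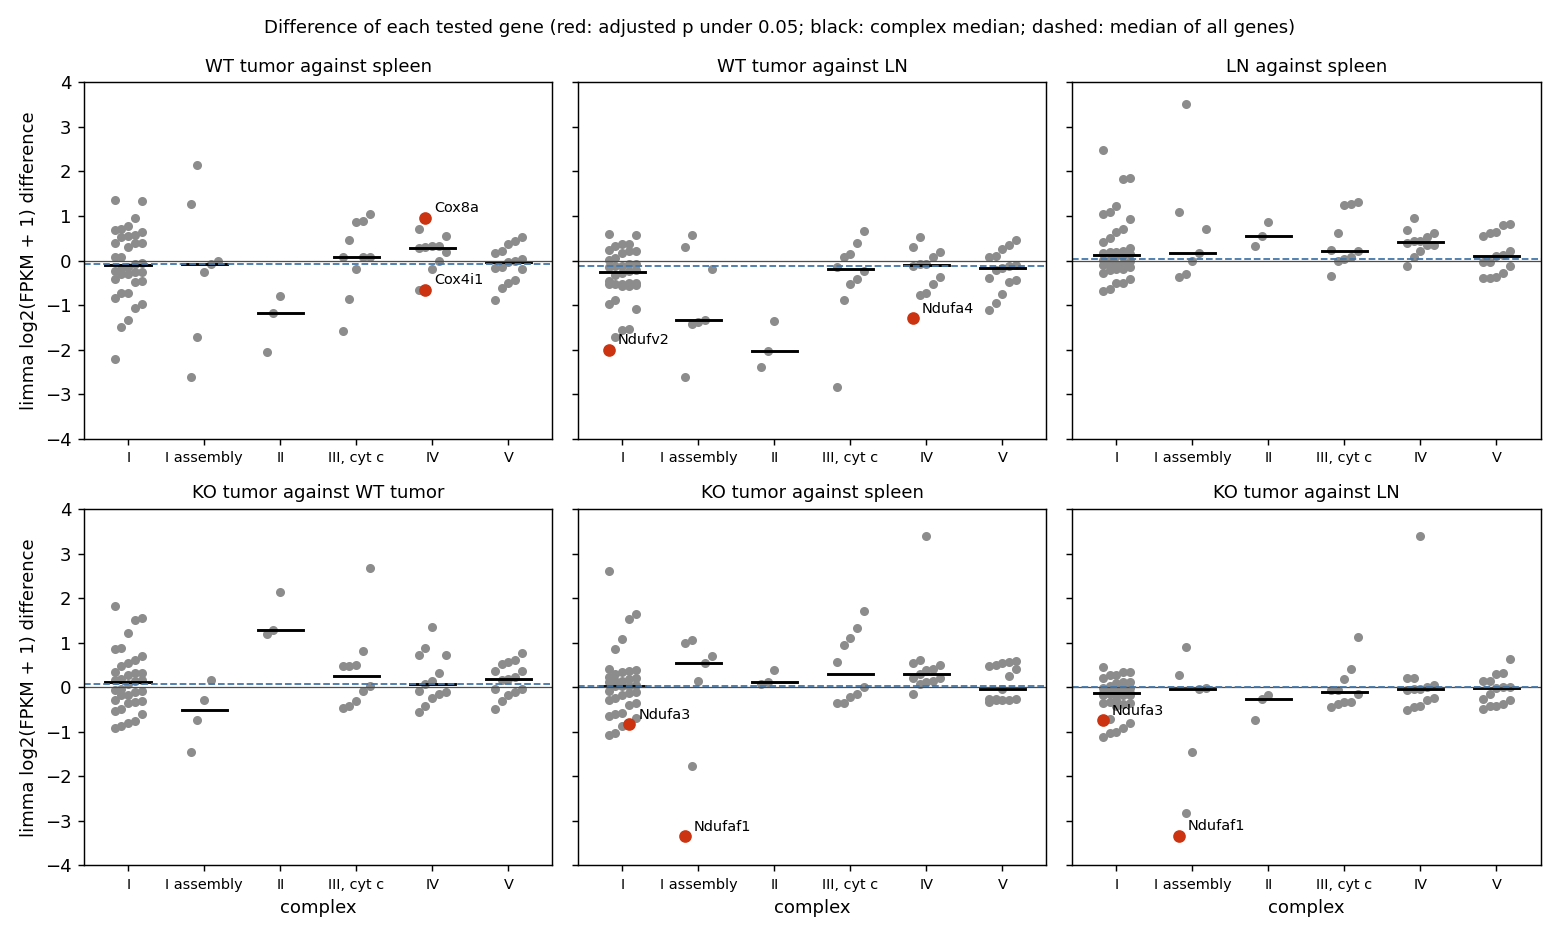
Log2(FPKM + 1) difference of each tested gene (y axis, limma) by complex (x axis) in the 6 comparisons; grey points are genes, red points those with adjusted p under 0.05, black bars complex medians and the dashed line the median of all genes. Most points lie around the dashed line, and the 6 named genes are those that passed.

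Of complex I, Ndufa3 and Ndufv2 passed the test. Ndufa3 encodes a small accessory subunit of the membrane arm (chr7:3617373-3620327, plus strand, GRCm38). It stood at 757, 801, 690 and 648 FPKM in spleen 1 to 4, at 609, 649, 633 and 834 in LN 1 to 4, and at 659, 852 and 775 in WT tumor 2 to 4. In KO tumor 1 to 3 it stood at 372, 382 and 464. All 3 KO tumor libraries lay below all 11 others. The log2 difference was -0.83 ± 0.158 (SE) against spleen (limma adjusted p = 0.00723) and -0.74 ± 0.158 against LN (limma adjusted p = 0.0134). Against WT tumor it was of like size, -0.91 ± 0.194, and did not pass in the fit of the 6 tumor libraries (limma adjusted p = 0.148), while a fit of all 14 libraries put it past the threshold (limma adjusted p = 0.0185; from 0.0185 to 0.532 over 15 alternatives). The call against LN was lost without KO tumor 1 (limma adjusted p = 0.0788) or without KO tumor 2 (0.0692), the range over 16 alternatives being 0.00609 to 0.0788. The gene overlaps Tfpt on the other strand, and the strand used in counting is not given in the sources used here. Tfpt itself stood at 0 to 17.0 FPKM.

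Ndufv2, a core subunit that holds an iron-sulfur cluster beside the NADH site (chr17:66078638-66101559, minus strand), was highest in LN. Its FPKM values were 161, 133, 136 and 123 in LN 1 to 4 and 71.4, 71.8, 101 and 37.9 in spleen 1 to 4. They were 58.1, 34.2 and 18.8 in WT tumor 2 to 4 and 89.3, 63.8 and 42.8 in KO tumor 1 to 3. Every LN library lay above every other library. Ndufv2 fell by 2.01 ± 0.407 on the log2 scale in WT tumor against LN (limma adjusted p = 0.0144). LN against spleen (1.03 ± 0.377, limma adjusted p = 0.316) and KO tumor against LN (-1.13 ± 0.405, limma adjusted p = 0.188) did not pass. Without LN 1 or without WT tumor 4 the WT tumor call was lost by a small margin (limma adjusted p = 0.0502 and 0.0518; 0.00966 to 0.0518 over 17 alternatives).

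The other 34 complex I subunits passed in no comparison. Ndufa2 stood at 1675, 1212 and 1571 FPKM in WT tumor 2 to 4, above LN (900 to 1120) and KO tumor (1043, 885 and 727), while spleen (859 to 1680) overlapped. Its differences were 0.60 ± 0.201 for WT tumor against LN (limma adjusted p = 0.147) and -0.75 ± 0.192 for KO against WT tumor (limma adjusted p = 0.262). Ndufc2, an accessory subunit, stood at 29.1 to 35.8 FPKM in spleen and at 54.1 to 69.9 in WT tumor, without overlap (0.95 ± 0.312, limma adjusted p = 0.166). Ndufs1, the core subunit with the most iron-sulfur clusters, stood at 3.64, 0.0792 and 5.68 FPKM in WT tumor 2 to 4 and at 13.3, 6.38 and 6.90 in KO tumor 1 to 3, a difference of 1.55 ± 0.859 (limma adjusted p = 0.706). Ndufv1, the subunit that binds NADH, overlapped in all comparisons, with group means from 40.5 ± 23.3 FPKM in spleen to 67.9 ± 17.9 in KO tumor.

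Among the complex I assembly genes Ndufaf1 passed, lower in KO tumor than in either lymphoid group, and its values were also low in WT tumor. Its product joins an early intermediate of the membrane arm (gene at chr2:119655446-119662827, minus strand). It stood at 22.5, 13.8, 34.3 and 41.2 FPKM in spleen 1 to 4 and at 13.4, 48.6, 22.2 and 29.6 in LN 1 to 4. The tumor values were 13.1, 1.11 and 1.83 FPKM in WT tumor 2 to 4 and 0.242, 0.499 and 8.98 in KO tumor 1 to 3. All 6 tumor libraries lay below all 8 lymphoid ones, WT tumor 2 by little. The log2 difference of KO tumor was -3.34 ± 0.799 against spleen (limma adjusted p = 0.0311) and -3.33 ± 0.799 against LN (limma adjusted p = 0.0275). That of WT tumor was -2.62 ± 0.687 against spleen (limma adjusted p = 0.0779) and -2.61 ± 0.687 against LN (limma adjusted p = 0.0606), and KO against WT tumor gave -0.73 ± 1.06 (limma adjusted p = 0.916), so a difference between the tumor groups was not detected. The KO tumor calls were lost without KO tumor 1 (limma adjusted p = 0.164 and 0.153 against spleen and LN) or 2 (0.143 and 0.139), without spleen 1, 3 or 4 (0.0561 to 0.0821) and without LN 2, 3 or 4 (0.0584 to 0.0906). Over 16 alternatives each, adjusted p ran from 0.00938 to 0.164 against spleen and from 0.00816 to 0.153 against LN. Without WT tumor 2 the WT tumor differences passed (-3.46, limma adjusted p = 0.0214, and -3.45, 0.0122), with 0.0214 to 0.224 and 0.0122 to 0.197 over 17 alternatives. In pooled RNA such as this, fewer cells with a transcript and less of it per cell cannot be told apart.

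The other 6 assembly genes passed in none of the comparisons that tested them. Ndufaf2, which acts late in assembly and was chosen for mention after its values were seen, was at 42.8, 16.9, 66.1 and 48.3 FPKM in LN 1 to 4 and at 0.112, 5.51, 14.2 and 0.385 in spleen 1 to 4. LN and spleen did not overlap, yet the difference of 3.51 ± 0.888 did not pass (limma adjusted p = 0.125). Within KO tumor the same gene ran from 0.109 to 65.4 FPKM. Ndufaf6 and Ndufaf5 were among the lowest, averaging 1.74 and 1.35 FPKM over all libraries.

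**Figure D4:**
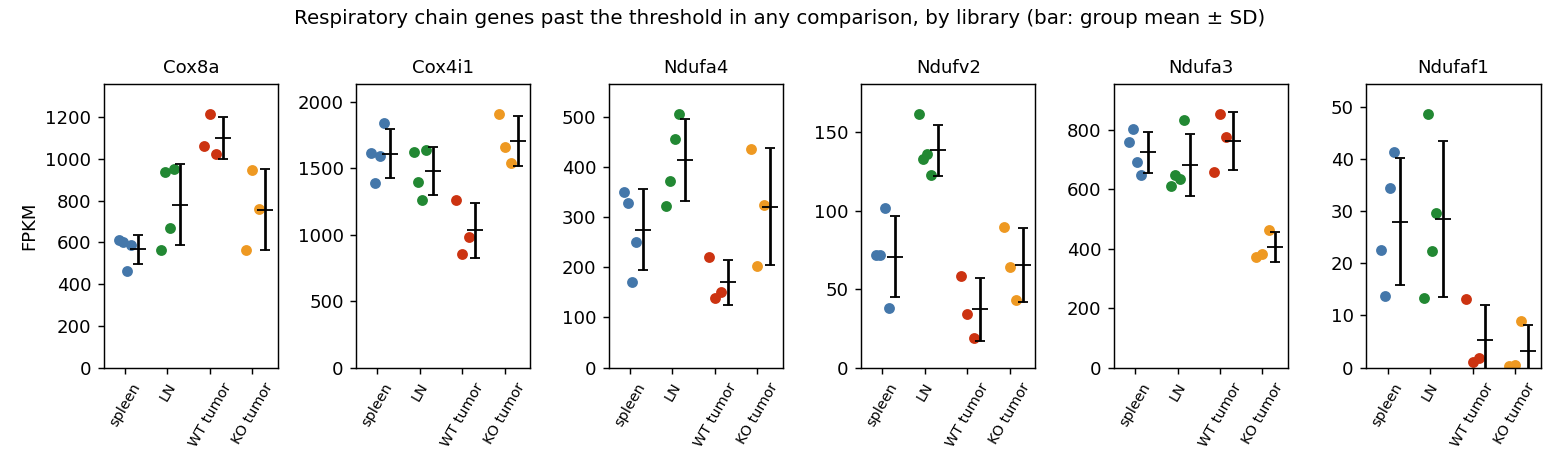
FPKM (y axis, from 0) of the 6 genes that passed the test in any comparison, by library; points are libraries and bars the group mean ± SD, cut at 0 for Ndufaf1. Ndufa3 is low in the 3 KO tumor libraries (372 to 464 FPKM), Ndufaf1 in all 6 tumor libraries, and Cox8a is high while Cox4i1 and Ndufa4 are low in WT tumor.

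Complex II had its lowest levels in WT tumor, and no gene of it passed. The summed FPKM of Sdha, Sdhb and Sdhc was 72.7 ± 29.9 in spleen, 86.1 ± 19.7 in LN, 19.7 ± 13.7 in WT tumor and 67.2 ± 21.8 in KO tumor. Sdha, the flavoprotein that oxidizes succinate, stood at 16.4, 3.28 and 15.6 FPKM in WT tumor 2 to 4 and at 32.2, 66.7 and 45.7 in KO tumor 1 to 3. It stood at 96.3, 41.8, 69.6 and 12.7 in spleen 1 to 4 and at 49.9, 44.9, 77.0 and 54.2 in LN 1 to 4. WT tumor lay below KO tumor and LN without overlap, and spleen 4 fell among its values. The log2 difference of WT tumor was -2.39 ± 0.657 against LN (limma adjusted p = 0.0709) and -2.06 ± 0.657 against spleen (limma adjusted p = 0.148). KO against WT tumor gave 2.14 ± 0.665 (limma adjusted p = 0.353).

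The iron-sulfur subunit Sdhb and the membrane anchor Sdhc also had their lowest group means in WT tumor. Sdhb stood at 10.4, 1.82 and 4.74 FPKM in WT tumor 2 to 4, below all LN libraries (12.4 to 33.9), and its difference against LN was -2.03 ± 0.644 (limma adjusted p = 0.124). KO against WT tumor was 1.29 ± 0.771 for Sdhb (limma adjusted p = 0.729) and 1.19 ± 0.840 for Sdhc (limma adjusted p = 0.776). Sdhd, the other anchor, was listed at 0 in 9 libraries and passed 1 FPKM in LN 3 alone, at 4.04. Sdha passed against spleen only without spleen 4 (-2.63, limma adjusted p = 0.0348), and against LN in a fit of all 14 libraries (limma adjusted p = 0.0461) or of WT tumor and LN alone (0.0419). Over 17 alternatives adjusted p ran from 0.0348 to 0.382 against spleen and from 0.0419 to 0.240 against LN.

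None of the genes of complex III and cytochrome c passed. Cycs, cytochrome c itself, stood at 20.3, 10.3, 26.0 and 37.0 FPKM in spleen 1 to 4 and at 29.2, 11.5, 28.7 and 37.8 in LN 1 to 4. It stood at 29.7, 54.1 and 38.4 in WT tumor 2 to 4 and at 70.2, 54.7 and 44.1 in KO tumor 1 to 3. KO tumor lay above both lymphoid groups without overlap, with differences of 1.34 ± 0.481 against spleen (limma adjusted p = 0.187) and 1.13 ± 0.481 against LN (limma adjusted p = 0.302). Cycs has 4 near-identical copies in the genome, 2 of them in the deposited tables, so its count may have been split.

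Cyc1, the cytochrome c1 subunit, was split within WT tumor: 1.01, 59.8 and 0.755 FPKM in replicates 2 to 4, against 32.7, 51.6 and 31.5 in KO tumor 1 to 3 and 28.2 to 68.0 in LN. Its difference of WT tumor against LN was -2.83 ± 1.03 (limma adjusted p = 0.192). Without WT tumor 3 it was -4.50 (limma adjusted p = 0.00517), and that against spleen was -3.24 (0.0495), so 1 library decides this gene; over 17 alternatives adjusted p ran from 0.00517 to 0.426 and from 0.0495 to 0.822. The core subunits Uqcrfs1, the Rieske iron-sulfur protein, and Uqcrc1 overlapped between groups in every comparison. Uqcrh stood at 1454, 1814 and 2150 FPKM in WT tumor 2 to 4 and at 1295, 1428 and 1181 in KO tumor 1 to 3, lower in KO without overlap (-0.46 ± 0.172, limma adjusted p = 0.476). Its pseudogene Uqcrh-ps1 was at 13.5 to 19.5% of the Uqcrh level in every library.

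Complex IV held 3 of the 6 genes that passed the test, each in a comparison of WT tumor with a lymphoid group. Cox8a, a small subunit of the complex (chr19:7215153-7217616, minus strand), stood at 1059, 1214 and 1023 FPKM in WT tumor 2 to 4 and at 612, 602, 462 and 587 in spleen 1 to 4. It stood at 564, 939, 666 and 949 in LN 1 to 4 and at 562, 948 and 761 in KO tumor 1 to 3. The 3 WT tumor values exceeded all 11 others. Cox8a rose by 0.96 ± 0.195 on the log2 scale in WT tumor against spleen (limma adjusted p = 0.0223). Against LN the difference was 0.53 ± 0.195 (limma adjusted p = 0.200), and KO against WT tumor gave -0.57 ± 0.210 (limma adjusted p = 0.475). Leaving out spleen 3 (limma adjusted p = 0.0562) or WT tumor 2, 3 or 4 (0.0632, 0.0880 and 0.0531) ended the call, the range over 17 alternatives being 0.0105 to 0.0880.

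Cox4i1, the subunit through which ATP acts on the enzyme (chr8:120668222-120674207, plus strand), went the other way. Its FPKM values were 1258, 857 and 983 in WT tumor 2 to 4, 1611, 1387, 1594 and 1842 in spleen 1 to 4, 1620, 1398, 1262 and 1633 in LN 1 to 4, and 1907, 1660 and 1540 in KO tumor 1 to 3. WT tumor lay below the other 11 libraries, though WT tumor 2 and LN 3 differed by little. Cox4i1 fell by 0.65 ± 0.155 in WT tumor against spleen, at the edge of the threshold (limma adjusted p = 0.04999). The difference against LN was -0.53 ± 0.155 (limma adjusted p = 0.0913), which passed with upper quartile scaling (0.0453), with scaling to the protein-coding total (0.0324) and without WT tumor 2 (0.0428), the range over 17 alternatives being 0.0324 to 0.275, and KO against WT tumor was 0.73 ± 0.178 (limma adjusted p = 0.229). The call against spleen was lost without spleen 1, 3 or 4 or WT tumor 3 or 4 (limma adjusted p = 0.0930 to 0.168), and with upper quartile scaling (0.0793), which left Cox8a as the 1 gene called; over 17 alternatives adjusted p ran from 0.0267 to 0.168. The FPKM ratio of Cox8a to Cox4i1 was 0.842, 1.42 and 1.04 in WT tumor 2 to 4 and 0.290 to 0.671 in the other 11 libraries. The pair was chosen after both genes were called, so the ratio restates their values and is no further result. Cox4i1 overlaps the coding gene Emc8 on the other strand, which stood at 0.551 to 17.0 FPKM, and Gm20388 on its own strand.

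Ndufa4 encodes a subunit of complex IV despite its name (chr6:11900292-11907497, minus strand). It stood at 323, 372, 457 and 506 FPKM in LN 1 to 4 and at 221, 138 and 151 in WT tumor 2 to 4, without overlap. Spleen 1 to 4 held 350, 329, 171 and 251 FPKM and KO tumor 1 to 3 held 436, 203 and 325, and both overlapped with WT tumor. It fell by 1.29 ± 0.277 on the log2 scale in WT tumor against LN (limma adjusted p = 0.0207). The differences against spleen (-0.67 ± 0.277, limma adjusted p = 0.291) and of KO against WT tumor (0.88 ± 0.334, limma adjusted p = 0.489) did not pass. Without LN 3 or 4 or WT tumor 3 or 4 the call was lost (limma adjusted p = 0.0623 to 0.0908; 0.00937 to 0.0908 over 17 alternatives).

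Several complex IV subunits exist as pairs of isoforms, and the widely expressed form had the higher deposited level. Cox4i2, Cox7b2, Cox8b, Cox8c and Ndufa4l2, forms known mainly from lung, testis, heart, muscle or hypoxic cells, were listed at 0 in all 14 libraries. Cox6b2 was above 0 in WT tumor 3 (3.01 FPKM) and KO tumor 2 (4.98) only, and Cox6a2, the heart and muscle form, in spleen 1 (0.111) and 3 (16.0) only. Cox6a1, the common form, stood at 424, 408, 420 and 394 FPKM in LN 1 to 4, above all other libraries (98.8 to 352). LN against spleen gave 0.96 ± 0.336 for it (limma adjusted p = 0.297).

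Cox7a1, the heart and muscle form of another subunit, was listed at 0 in all 8 lymphoid libraries and in WT tumor 2. It reached 54.1 FPKM in WT tumor 4 and 34.3 and 26.6 in KO tumor 1 and 2. It was listed at 0.278 in WT tumor 3 and at 0.218 in KO tumor 3. Cox7a1 passed the filter on low values only through the 3 tumor libraries in which it is high, so its test is not given. Erythroid markers summed to 8716 to 16427 FPKM in these 3 libraries and to 11899 in WT tumor 3. The same sum was 225 in WT tumor 2, 63.3 in KO tumor 3, 2969 to 7079 in spleen and 79.0 to 1190 in LN. A link between these markers and Cox7a1 was not tested. The ubiquitous partners Cox7a2 and Cox7a2l stood at 313 to 657 and 241 to 537 FPKM over all libraries.

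Complex V had no gene past the threshold in any comparison. The catalytic beta subunit Atp5b stood at 141, 137 and 195 FPKM in WT tumor 2 to 4 and at 316, 205, 205 and 245 in spleen 1 to 4, without overlap (-0.61 ± 0.280, limma adjusted p = 0.338). For its partner Atp5a1, the alpha subunit, the same difference was -0.51 ± 0.352 (limma adjusted p = 0.563) with overlap. Subunit c, the ring that turns in the membrane, has 3 genes that encode the same mature protein. Atp5g3 averaged 60.3 FPKM over the libraries, Atp5g1 22.2 and Atp5g2 2.49. Atp5g1 stood at 7.02, 12.9 and 20.7 FPKM in WT tumor 2 to 4, below all LN libraries (22.0 to 34.7), with a difference of -1.10 ± 0.454 (limma adjusted p = 0.255). Atp5g1 and Atp5g2 have near-identical copies elsewhere in the genome. Atp5d, the delta subunit of the rotor stalk, stood at 527, 489 and 429 FPKM in KO tumor 1 to 3 and at 280 to 419 in LN and 328 to 362 in spleen, differences of 0.63 ± 0.224 (limma adjusted p = 0.185) and 0.50 ± 0.224 (limma adjusted p = 0.332).

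Between the lymphoid groups, LN stood above spleen for many genes by amounts that did not pass. Of 86 tested genes 57 (66.3%) had a difference above 0, where 51.3% of all tested genes did. The ranges of the groups lay apart for 10 genes, each higher in LN (11.6%), where 7.87% of all genes had ranges apart in either direction and 3.87% were higher. The 10 were Cox6a1, Cox6c and Cox7a2 of complex IV, Ndufa7, Ndufb4, Ndufc2 and Ndufv2 of complex I, Uqcrb of complex III, Atp5j of complex V and the assembly gene Ndufaf2. Of 12 tested complex IV genes 11 lay higher in LN, with a median difference of 0.42. The median of all respiratory chain genes was 0.19 beside 0.02 for all genes. Scaling by the upper quartile moved the median of all genes in this comparison by 0.115, to 0.139, and that of the respiratory chain genes to 0.343. Marker sums also lay apart between these groups: erythroid (2969 to 7079 FPKM in spleen, 79.0 to 1190 in LN), macrophage and monocyte (271 to 711 and 4.04 to 36.1), B cell (95.2 to 295 and 52.6 to 69.6) and CD8 T or NK (6.91 to 60.01 and 0.110 to 5.52). Depth lay apart as well, at 11.5 to 13.9 M reads in spleen and 18.4 to 21.4 in LN. The part of these markers and of depth in the differences was not tested.

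KO against WT tumor showed differences in both directions. The ranges lay apart for 12 of 83 genes (14.5%), where 14.5% of all tested genes had ranges apart. Of these 6 were higher in KO, beside 7.54% of all genes, and 6 lower, beside 6.93%. Higher were Sdha, Cox4i1, Cox5a, Ndufb8, Ndufs1 and Ndufs5, and lower were Ndufa2, Ndufa3, Ndufa6, Ndufc2, Cox8a and Uqcrh. The median difference was 0.13, beside 0.07 for all genes, and -0.07 without WT tumor 2. By complex the medians were 0.11 (I), 1.29 (II), 0.25 (III and cytochrome c), 0.08 (IV) and 0.18 (V). The macrophage and monocyte marker sum was 306 to 415 FPKM in KO tumor and 1.18 to 106.5 in WT tumor, and its part in these differences was not tested.

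For the remaining comparisons the share of genes with ranges apart was below that of all genes. It was 7 of 86 (8.14%) beside 11.5% for WT tumor against spleen, 13 of 86 (15.1%) beside 17.0% for WT tumor against LN, 7 of 87 (8.05%) beside 13.4% for KO tumor against spleen and 12 of 87 (13.8%) beside 16.9% for KO tumor against LN. Of the 13 in WT tumor against LN 10 were lower in tumor, beside 8.95% of all genes (Sdha, Sdhb, Ndufv2, Ndufb6, Ndufs5, Ndufa4, Ndufaf1, Atp5g1, Cox4i1 and Cox6a1), and 3 were higher, beside 8.02% (Ndufa2, Cox8a and Atp5l).

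How small a difference could be seen depended on the level of the gene. The median within-group SD of log2(FPKM + 1) was 1.03 for the 21 genes that averaged 1 to 20 FPKM, 0.613 for the 33 between 20 and 200, and 0.340 for the 34 at 200 or more. For WT tumor against spleen the 95% confidence interval of a difference reached 1.56, 0.977 and 0.531 to each side. Of the 7 assembly genes 6 lay between 1 and 20 FPKM, as did Sdhb and Sdhc, while 10 complex IV genes lay at 200 FPKM or more.

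**Figure D5:**
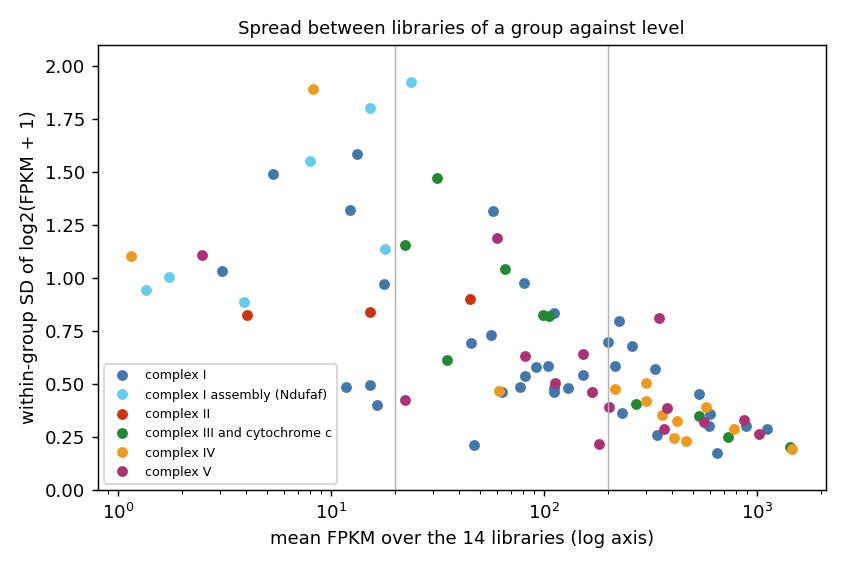
Within-group SD of log2(FPKM + 1) (y axis) against mean FPKM over the 14 libraries (x axis, log scale); each point is a gene, coloured by complex, and grey lines mark 20 and 200 FPKM. The spread falls from a median of 1.03 below 20 FPKM to 0.340 at 200 FPKM or more.

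Genes around the chain were read from lists taken by role. Of the assembly factors outside the Ndufaf genes 37 were in the tables, 27 to 34 were tested in a comparison, and limma called 0 in each of the 6, where 0.280 to 3.42% of all genes were called. At an unadjusted p under 0.05 were 5 in WT tumor against spleen (14.3% of all genes), 3 in WT tumor against LN (15.6%), 1 in LN against spleen (10.4%), and in KO tumor 2 against WT tumor (8.64%), 2 against spleen (13.9%) and 0 against LN (13.1%). Of 13 regulators of respiratory genes 9 to 11 were tested and limma called 0 in each, with 0 or 1 at an unadjusted p under 0.05, beside the same shares of all genes; so short a list would hold few calls at those shares. Among them Nrf1 stood at 0.857 to 22.5 FPKM, Gabpa at 0.505 to 10.8 and Yy1 at 27.5 to 84.1. The coactivator Ppargc1a was listed at 0 in 12 libraries and at 0.0432 and 0.816 FPKM in WT tumor 2 and 4.

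Of the 13 chain genes of the mitochondrial genome 9 were tested, and 4 passed in at least 1 comparison. By comparison limma called 2 in WT tumor against spleen (1.90% of all genes), 2 in WT tumor against LN (3.04%) and 1 in LN against spleen (0.499%). For KO tumor it called 0 against spleen (2.80%), 3 against LN (3.42%) and 0 against WT tumor (0.280%). Of the untested, mt-Co2, mt-Atp6 and mt-Atp8 were listed at 0 in every library and mt-Co3 at 0 to 0.209 FPKM. mt-Co1, the catalytic subunit of complex IV, stood at 1462, 1268 and 1280 FPKM in WT tumor 2 to 4 and at 798 to 889 in spleen, and rose by 0.67 ± 0.124 on the log2 scale (limma adjusted p = 0.0135). It also rose in LN against spleen (0.66 ± 0.115, limma adjusted p = 0.0267). mt-Nd6, a complex I subunit, had levels of 986, 725 and 726 FPKM in WT tumor 2 to 4, below spleen (1513 to 2153) and LN (2054 to 2608). It fell by 1.10 ± 0.155 against spleen (limma adjusted p = 0.00273) and by 1.52 ± 0.155 against LN (limma adjusted p = 0.000105), and KO tumor against LN gave a drop of 0.81 ± 0.164 as well (limma adjusted p = 0.00962). mt-Nd2 fell in both tumor groups against LN (by 0.72 ± 0.181 in WT tumor, limma adjusted p = 0.0489, and by 0.99 ± 0.175 in KO tumor, 0.00368), and mt-Nd3 in KO tumor against LN (by 0.99 ± 0.216, limma adjusted p = 0.0158). In KO against WT tumor limma called 0 of the 9, with 1 at an unadjusted p under 0.05. mt-Nd6 lies on the strand opposite to the other mitochondrial protein genes, and whether counting used strand is not given in the sources used here.

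Of 14 further genes taken by role 12 or 13 were tested in a comparison. Limma called 1 in WT tumor against spleen (1.90% of all genes) and 1 against LN (3.04%). In KO tumor it called 2 against spleen (2.80%), 1 against LN (3.42%) and 0 against WT tumor (0.280%), and in LN against spleen 0 (0.499%). Hif1a, which encodes a transcription factor subunit, stood at 138 to 159 FPKM in WT tumor and 117 to 165 in KO tumor, above all lymphoid libraries (24.0 to 69.7). It rose by 1.69 ± 0.367 in WT tumor against spleen (limma adjusted p = 0.0308; against LN 0.00820), and in KO tumor by 1.64 ± 0.337 against spleen (limma adjusted p = 0.0127) and 1.95 ± 0.337 against LN (limma adjusted p = 0.00315). Slc25a4, an ADP and ATP carrier, rose by 1.51 ± 0.379 in KO tumor against spleen (limma adjusted p = 0.0425).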

How the data were processed

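RNA-seq libraries of sorted Tregs from spleen (4), LN (4), WT tumor (3) and KO tumor (3) were analysed. The authors deposited 1 table of FPKM per library; per the submitters' processing notes the build was mm10 (GRCm38), and the tools listed, with no order, were Cufflinks 2.2.1, Bowtie2 2.2.9, TopHat2 2.1.1, DESeq2, Trimmomatic and Cuffdiff. The unit is FPKM, not counts, so no count model was run. FPKM are shares, and a gain in some genes lowers others. Depth was estimated from the steps between low values times transcript length; 92.8 to 96.6% of the low values used were whole reads within 0.1.

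Genes with at least 3 libraries of a fit at 1 FPKM were tested with robust limma-trend (limma 3.58.1, R 4.3.3) on log2(FPKM + 1), a scale that understates differences of low genes. WT tumor, LN and spleen shared a fit of 11 libraries, KO against WT tumor used the 6 tumor libraries, and KO tumor against the lymphoid groups used all 14. Of the 96 genes 86, 83 and 87 were tested in these, and 9 in none. The 83 and the 87 include Cox7a1, whose test is not given. The script was tested on simulated data. Positions came from GENCODE M21 (GRCm38), where 22196 of 22255 identifiers matched, and promoters from RefSeq. Of the 94 genes other than pseudogenes 22 have a near-identical copy (95% identity over 80% of the coding sequence), 9 of them with the copy in the tables; none of the 6 genes that passed is among them.

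The genes and lists were chosen with earlier results of these data known. Genes named are those past the threshold, the 2 per complex with the smallest p in the comparisons of WT tumor with each of the other 3 groups, core subunits, isoforms, and the highest and lowest; others named were chosen after their values were seen. Alternatives were other pseudocounts (0.1 and 5), filters, scalings, library weights, groups in the fit, a replicate block and leaving out each library. Same-numbered libraries did not deviate together (r from -0.0276 to 0.0301 over 18 pairs), so the main fits carry no block. No 2 libraries held identical values. Python 3.11.15, numpy 2.4.6, pandas 2.3.3, scipy 1.17.1 and matplotlib 3.10.9 did the rest.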

Additional observations from a re-analysis of the deposited data

Results flagged for a closer look

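In 6 of the 83 groups of 4 libraries examined, 1 library lay far from its 3 neighbours by Dixon's ratio (gap to the nearest over the whole range, at the 95% level); chance alone gives about 1 in 20. Atp5d stood at 418.9 FPKM in LN 1 and at 280 to 282 in the other LN libraries. Atp5k, a small complex V subunit, stood at 1185 FPKM in LN 2 against 824 to 843. Cox6a2 stood at 16.0 FPKM in spleen 3 against 0 to 0.111, and Cox8a at 462 FPKM in the same library against 587 to 612. The complex I median was 6.62 on the log2(FPKM + 1) scale in LN 1 against 6.82 to 6.86, and the complex IV median was 8.48 in spleen 2 against 8.07 to 8.08.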

How the results depend on the processing

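The number of respiratory chain genes called was small under every alternative run, and which genes were called often changed. WT tumor against spleen (2) gave 1 with a pseudocount of 0.1 or 5, upper quartile scaling or only the 2 groups in the fit (an alternative chosen after seeing the data), Cox8a each time, and 0 with no filter or with library weights. WT tumor against LN (2) gave 1 with no filter and 4 with scaling to the protein-coding total. KO tumor against spleen (2) gave 1 with no filter or only the 2 groups in the fit, KO tumor against LN (2) gave 1 with no filter, and KO against WT tumor (0) gave 1, Ndufa3, with all 14 libraries in 1 fit. LN against spleen stayed at 0 in all 18 alternatives. Leaving out single libraries gave 0 to 2 calls for WT tumor against spleen and 0 to 4 against LN. For KO tumor it gave 1 to 3 against spleen and 0 to 4 against LN. Without KO tumor 3 these KO tumor counts include Cox7a1, whose test is not given for the reason stated above. The median difference of KO against WT tumor ran from -0.07 to 0.15 with single libraries left out (0.13 with all, -0.0659 without WT tumor 2). Over all 15 alternatives it reached 0.230. Ndufa3 kept its call in KO tumor against spleen in all 16 alternatives (limma adjusted p from 0.00449 to 0.0438), while each of the other calls was lost in at least 1. Scaling to the protein-coding total moved the median level of complex I in KO tumor to 6.56 and of complex V in WT tumor to 7.42, and a pseudocount of 0.1 moved that of the assembly genes in WT tumor to 1.23. The causes were not tested. With the replicate block, which the labels do not say pairs libraries, WT tumor gave 0 calls against spleen and 1 against LN, KO tumor gave 1 against each of these and 0 against WT tumor, and LN gave 0 against spleen; over all genes tested these were 89, 186, 230, 265, 6 and 20 calls. The spread between libraries was widest for genes below 20 FPKM, for which depth was not tested as a cause, and groups of 3 and 4 limit the precision of every comparison.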
